A study of Mus musculus with 6 samples.

Results

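The genes described here serve antigen presentation on major histocompatibility complex (MHC) class II, and their RNA was measured in epithelial cells of the mouse colon. They are 8 genes taken by name: the class II chains H2-Aa, H2-Ab1 and H2-Eb1, the invariant chain Cd74, the peptide editor subunit H2-DMa, the transactivator Ciita, the protease Ctss and the thiol reductase Ifi30. Each had 1 probe set of its own, and they were 8 of the 19938 genes measured with such a probe set. The samples were EpCAM-positive, CD45-negative cells sorted from the colon of wild-type male BALB/c mice aged 6 weeks, which had been starved for 36 h and then given food again for 24 h. The 3 re-fed samples came from mice with no further treatment. The 3 antibiotics samples came from mice given antibiotics during re-feeding, whose names the sources used here do not give. RNA of each sample was hybridised to 1 Affymetrix array, and values are log2 expression. The study asks what gut bacteria do to the epithelium of the re-fed colon, and the comparison made here is antibiotics against re-fed.

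A class II molecule is an alpha and a beta chain that present peptides from the endosome to CD4+ T cells. The invariant chain Cd74 blocks the groove of new molecules and leads them to the endosome, where cathepsin S, encoded by Ctss, cuts it and H2-DM exchanges the remaining fragment for a peptide. Class II is the hallmark of dendritic cells, macrophages and B cells. Epithelial cells of the gut can also make it, chiefly when interferon-gamma, and the microbes that raise it, induce the transactivator Ciita.

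Ciita does not bind DNA. It joins RFX, CREB and NF-Y proteins, which sit on the X1, X2 and Y boxes just upstream of class II genes. The stretches before the start of 2 class II chains and of the 2 brightest members are shown. The members split by signal into a lower and a bright set, and these are promoters of both. They are the 150 bases before the annotated start, from RefSeq on GRCm38.p6, the genome of C57BL/6J and not of BALB/c. H2-Aa lies at chr17:34287824-34287973 on the minus strand, H2-Eb1 at chr17:34305717-34305866 on the plus strand, Ctss at chr3:95526636-95526785 on the plus strand and Ifi30 at chr8:70766664-70766813 on the minus strand. Capitals mark matches to the letters given below.
H2-Aa: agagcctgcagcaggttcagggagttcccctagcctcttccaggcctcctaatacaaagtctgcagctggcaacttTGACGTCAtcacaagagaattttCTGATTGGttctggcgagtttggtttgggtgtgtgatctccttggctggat
H2-Eb1: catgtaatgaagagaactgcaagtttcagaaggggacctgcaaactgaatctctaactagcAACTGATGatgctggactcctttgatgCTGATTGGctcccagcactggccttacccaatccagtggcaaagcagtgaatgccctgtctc
Ctss: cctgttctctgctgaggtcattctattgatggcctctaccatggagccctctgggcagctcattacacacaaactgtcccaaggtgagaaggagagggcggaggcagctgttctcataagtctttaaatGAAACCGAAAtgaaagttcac
Ifi30: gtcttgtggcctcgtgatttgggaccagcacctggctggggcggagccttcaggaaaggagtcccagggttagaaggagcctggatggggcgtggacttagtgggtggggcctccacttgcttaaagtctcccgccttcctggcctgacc

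The letters CTGATTGG, a form of the Y box, stand in the promoters of both chains, from -51 to -44 in H2-Aa and from -62 to -55 in H2-Eb1. They occur, on either strand, in 3.83% of the 32851 RefSeq promoter windows when the 250 bases before the start are searched. H2-Aa also holds TGACGTCA, a form of the X2 box found in 1.55% of windows, from -74 to -67. H2-Eb1 holds AACTGATG, the end of an X1 box and found in 0.676% of windows, from -89 to -82. Ctss holds GAAACCGAAA from -21 to -12, a form of the interferon-stimulated response element found in 0.0426% of windows. The letters of these motifs were chosen after the windows had been read, so their presence here is a description. None of the 4 forms stands in the window of Ifi30. The 4 motifs did not overlap each other in these windows. Windows were found for 5 of the 8 members, the fifth being H2-DMa, in whose 2 windows none of the 4 forms was found.

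Before the results, 3 facts of the whole series bear on all values. From their deposited values 4 arrays look like 1 common normalisation run, namely replicates 2 and 3 of the re-fed group and replicates 1 and 2 of the antibiotics group. Each pair of them shares 372 to 435 identical values against 42 to 198 for pairs with another array. The labels name no such run, so the term common run used below rests on these values alone. Antibiotics replicate 3 also differs from the other 5 arrays in holding 10829 distinct deposited values against 34568 to 34596, and it has the lowest median, 5.63 against 5.87 to 6.17. Values were therefore put on a common distribution by quantile normalisation, and differences within these 4 arrays are given beside those over 6. The antibiotics response is visible elsewhere: Retnlb, a goblet cell protein known to depend on bacteria, stood at 8.22, 9.13 and 9.25 without and 7.09, 6.87 and 7.16 with antibiotics, a difference of -1.83 (SE 0.24, limma adjusted p = 0.0441). That call was lost without any 1 array except re-fed replicate 1, with differences from -1.89 to -1.64. It was lost as well without the floor (adjusted p = 0.102). The cells carried epithelial RNA, with the 14 measured epithelial markers all above the floor and Epcam at percentile 99.2 of probe-set means. CD45 RNA (Ptprc) lay at percentile 31.6.

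The floor for dim signal was the 40th percentile of probe-set means, 5.81 on the log2 scale, because this normalisation gives no detection call. Of the 8 members, 4 had a mean above it (Ctss, Ifi30, Cd74 and H2-Eb1) and 4 below (H2-DMa, Ciita, H2-Aa and H2-Ab1). The nearest on each side were H2-Eb1 at percentile 40.8, a mean of 5.84, and H2-DMa at percentile 36.7, a mean of 5.65. Cd74 lay at percentile 44.6, Ciita at 28.2, H2-Aa at 24.2 and H2-Ab1 at 21.4, while Ctss lay at 93.9 and Ifi30 at 94.3. Percentiles place each probe set among all probe sets. The brightness of a probe set also depends on its probes, so they do not order the genes by RNA level. BALB/c mice carry class II alleles of the d haplotype, and the class II chains are highly polymorphic. How well the probes of this array match those alleles was not tested.

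**Figure D1:**
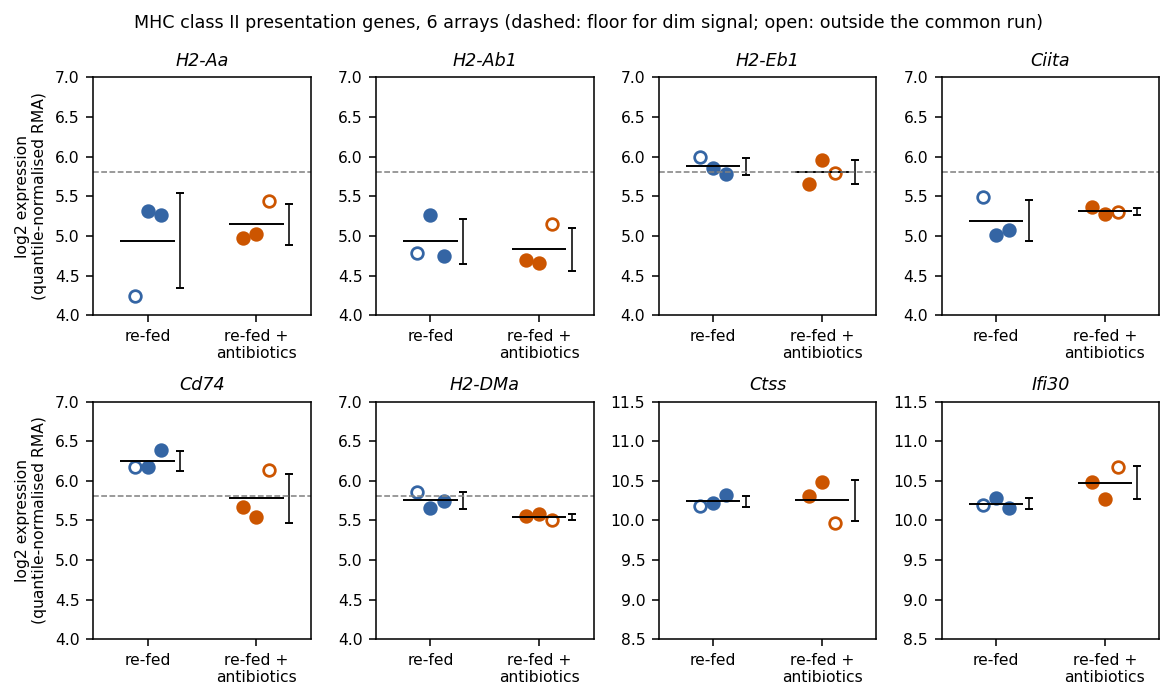
Each point is the log2 expression of 1 gene on 1 array after quantile normalisation, in 3 re-fed samples (blue) and 3 antibiotics samples (orange). Open points are the 2 arrays outside the common run, lines are group means, side bars are 1 SD, and the dashed line is the floor at 5.81 (outside the range drawn for Ctss and Ifi30, whose panels start at 8.5). H2-Aa, H2-Ab1 and Ciita lie under the floor on all arrays, Cd74 straddles it and Ctss and Ifi30 lie near 10.

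Cd74, the invariant chain, had the largest difference of the 8 members over 6 arrays. It stood at 6.17, 6.18 and 6.40 in the re-fed samples and at 5.67, 5.55 and 6.13 with antibiotics. The groups did not overlap, but the gap was narrow, since antibiotics replicate 3 lay just under the lowest re-fed sample. The means were 6.25 ± 0.13 and 5.78 ± 0.31 (SD, n = 3 each), a difference of -0.47 (SE 0.16, 95% interval -0.82 to -0.11) or a 1.38-fold lower level with antibiotics. It did not pass limma's test over all genes (adjusted p = 0.289). In sorted cells of mixed type, fewer cells that express a gene and less of its RNA per cell cannot be told apart.

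The difference in Cd74 depended on the arrays. Within the common run it was -0.68 (SE 0.12, adjusted p = 0.0648), the lowest adjusted p of the members there. Without antibiotics replicate 3 it was -0.64 (adjusted p = 0.0983). Re-fed replicate 1 and antibiotics replicate 3, the 2 arrays outside the run, differed by little, 6.17 against 6.13. Array weights, which gave antibiotics replicate 3 the least weight (0.33) and antibiotics replicate 1 the most (3.82), made it a call at -0.57 (adjusted p = 0.0142), under a setting that called 1169 genes. In the other settings that tested it, the adjusted p of Cd74 lay between 0.0648, in the common run, and 0.9997, with the deposited scaling.

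Cd74 is most abundant in leukocytes that present antigen, so their markers were read beside it. Each mean given here is over all measured genes of a list, those under the floor included. Of 8 pan-leukocyte genes 3 lay above the floor, and the mean log2 level of the 8 was 5.43 to 5.51 in the re-fed and 5.31 to 5.43 in the antibiotics samples. Of 21 genes of dendritic cells and macrophages 5 lay above the floor, with means over the 21 of 5.40 to 5.47 and 5.44 to 5.50. Of 11 genes of B and plasma cells 4 did, with means over the 11 of 5.54 to 5.60 and 5.57 to 5.65. The defining genes Ptprc (6-array mean 5.42), Itgax (5.25), Csf1r (5.43), Cd79a (4.57) and Ms4a1 (4.06) lay under the floor. The brightest markers were Rac2 (6.35), Cd14 (7.89) and Blnk (10.14). For T cells 2 of 14 genes and for type 3 innate lymphoid cells 1 of 5 lay above the floor, with Cd3e at 6.29 and Kit at 7.66. For stroma and endothelium 5 of 10 did, with Col1a1 highest at 6.76, and the mean of the 10 was 5.70 to 5.83 in the re-fed and 5.68 to 5.81 in the antibiotics samples. Among these 10 the endothelial gene Pecam1, named after its values were seen, differed by -0.44 over 6 arrays and by -0.65 within the common run. The mean of the 14 epithelial markers was 12.41 to 12.44 in the re-fed and 12.25 to 12.32 in the antibiotics samples, which did not overlap. Of these 14 differences 12 lay below 0, where 5947 of the 12071 genes tested did. Groups did not overlap for 5, where 19.6% of all genes tested had such groups. Of the 14, 0 passed over all genes, and 3 had an unadjusted p under 0.05, where 12.6% of all genes did. These 3 were Krt18, Krt20 and Cdx2, named after their values were seen, with differences of -0.59, -0.46 and -0.32. Epcam, on which the cells were sorted, differed by -0.036, so the lower mean was not shared evenly by the markers. The part of other cells, or of the epithelial share, in the level of Cd74 was not tested.

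Of the class II chains among the members, H2-Aa and H2-Ab1 lay under the floor and H2-Eb1 just above it. H2-Aa, the alpha chain of I-A, stood at 4.25, 5.32 and 5.26 in the re-fed samples and at 4.97, 5.03 and 5.44 with antibiotics. The groups overlapped, with re-fed replicate 1 lowest and antibiotics replicate 3 highest. Its beta chain H2-Ab1 stood at 4.78, 5.26 and 4.75 without and at 4.70, 4.65 and 5.15 with antibiotics. In each group 1 sample lay well above the other 2, and the groups overlapped.

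H2-Eb1, the beta chain of I-E, stood at 6.00, 5.86 and 5.78 in the re-fed samples and at 5.66, 5.96 and 5.79 with antibiotics. These values lay on both sides of the floor and the groups overlapped. The difference was -0.075 (SE 0.12, 95% interval -0.34 to 0.19, limma adjusted p = 0.828). An interval of this width does not show that the groups are alike. The difference was -0.0084 within the common run, -0.0024 without antibiotics replicate 1 and -0.15 without antibiotics replicate 2. H2-Aa and H2-Ab1 lay under the floor and were left out of that fit, and their differences were 0.20 and -0.10, against -0.29 and -0.33 within the common run. Without the floor, limma gave them adjusted p-values of 0.868 and 0.907, and exact permutation tests gave p = 0.8 and 0.5.

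The other chains and editors were dim. All 4 with a probe set of their own lay under the floor, at 6-array means of 4.68 for H2-Ea (the alpha chain of I-E), 4.81 for H2-Eb2, 5.51 for H2-Oa and 5.49 for H2-Ob (the subunits of H2-O, which restrains H2-DM). H2-Ob stood at 5.07, 5.86 and 5.84 in the re-fed samples and at 5.70, 5.63 and 4.87 with antibiotics. Its 2 low values are those of the 2 arrays outside the common run, 1 from each group. H2-DMb1 and H2-DMb2, the partners of H2-DMa, were not analysed here because their probe set names both genes.

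H2-DMa, a subunit of the editor that loads peptides, stood at 5.86, 5.65 and 5.75 in the re-fed samples and at 5.56, 5.58 and 5.50 with antibiotics. The groups did not overlap, with all antibiotics values lower, but all of them and 2 of the re-fed values lay under the floor. The means were 5.75 ± 0.10 and 5.55 ± 0.038 (SD, n = 3 each), a difference of -0.21 (-0.13 within the common run, and -0.028 there with the deposited scaling). An exact permutation test over the 6 arrays gave p = 0.1 (two-sided), the smallest p that 3 against 3 allows. Without the floor, limma gave an adjusted p of 0.642.

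Ciita, the transactivator, stood at 5.49, 5.01 and 5.08 in the re-fed samples and at 5.36, 5.28 and 5.30 with antibiotics. The 3 antibiotics values lay inside the re-fed range, and the difference was 0.12, against 0.28 within the common run, 0.27 without re-fed replicate 1 and 0.030 without re-fed replicate 2. The proteins that Ciita joins on the promoter were above the floor, all 7 of 7. Rfx5, the DNA-binding subunit of RFX, stood at 6.19 ± 0.17 and 6.20 ± 0.31, a difference of 0.0090 (SE 0.16, adjusted p = 0.99). Nfyb, a subunit of NF-Y, was at 6.69, 6.92 and 7.16 without and 6.65, 6.64 and 6.34 with antibiotics. Its groups did not overlap, and the difference was -0.38 (SE 0.14, adjusted p = 0.342). Nfya and Nfyc differed by 0.084 (SE 0.10) and 0.13 (SE 0.13). None of the 7 passed over all genes, and 1, Nfyb, had an unadjusted p under 0.05, where 12.6% of all genes did. Of the 7 differences, 5 lay above 0 and 2 below, with a median of 0.048, but with the deposited scaling 0 lay above and 7 below, where 8742 of the 12071 genes lay below as well.

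Ctss and Ifi30, the enzymes that prepare class II ligands, were bright on all 6 arrays. Ctss, which cuts the invariant chain, stood at 10.18, 10.22 and 10.32 in the re-fed samples and at 10.30, 10.49 and 9.97 with antibiotics. The antibiotics samples lay on both sides of the re-fed range. The difference was 0.015 (SE 0.14, 95% interval -0.29 to 0.32, limma adjusted p = 0.979), and it was -0.17 with the deposited scaling, where the median of all genes moved to -0.12. Within the common run it was 0.13.

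Ifi30, also called GILT, reduces disulphide bonds of proteins in the lysosome. It stood at 10.19, 10.29 and 10.15 in the re-fed samples and at 10.49, 10.27 and 10.68 with antibiotics. The groups overlapped because antibiotics replicate 2 lay just under re-fed replicate 2. The means were 10.21 ± 0.070 and 10.48 ± 0.20 (SD, n = 3 each), a difference of 0.27 (SE 0.12, 95% interval -0.011 to 0.54, limma adjusted p = 0.414). Within the common run it was 0.16 (adjusted p = 0.527), without antibiotics replicate 3 it was 0.17, and with the deposited scaling and median centring it was 0.088 and 0.13. Among the 4 members tested, Ifi30 had the highest difference and Cd74 the lowest.

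**Figure D2:**
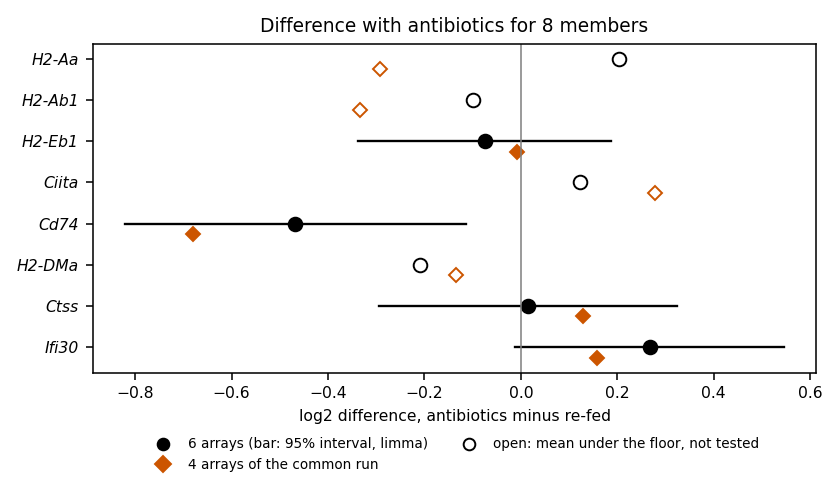
Log2 difference, antibiotics minus re-fed, for each of the 8 members. Black circles are over 6 arrays with limma's 95% interval as a bar, orange diamonds are within the 4 arrays of the common run, and open symbols are members with a mean under the floor, which have no interval. The interval of Cd74 (-0.82 to -0.11) does not reach 0, and those of H2-Eb1, Ctss and Ifi30 do.

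Over the members, 0 of the 4 above the floor were called (limma, Benjamini-Hochberg, adjusted p under 0.05), where 0.058% of all genes tested did (7 of 12071, Retnlb among them). At an unadjusted p under 0.05 there was 1 of 4, Cd74, where 12.6% of all genes had such a p. Groups that did not overlap were found for 1 of these 4, again Cd74, where 19.6% of all genes tested had them, and for 2 of all 8 members (Cd74 and H2-DMa, both lower), where 15.3% of all genes measured did. In the common run 0 of 4 passed, where 0.447% of genes did, and 1 of 4 had an unadjusted p under 0.05 (17.4% of all genes). With exact permutation tests the smallest p was 0.1, for Cd74 and H2-DMa. The 4 differences split 2 above and 2 below 0, with a median of -0.030 (0.0033 over all genes tested). By array, the mean deviation of the 4 was lowest in antibiotics replicates 1 and 2 (-0.083 and -0.046) and between 0.023 and 0.049 on the other 4 arrays.

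The 5 genes whose levels over the 6 arrays were most like that mean deviation were Cfl2 (Pearson r = 0.997), a cofilin that severs actin, Mfsd6 (0.993), Ik (0.985), Psme2 (0.985) and Rcor3 (0.984). These are the highest of 12067 correlations over 6 arrays that share 2 groups and their scaling, and they are given as a description. Psme2 encodes a subunit of the proteasome activator PA28. It stood at 11.25, 11.27 and 11.33 in the re-fed and at 11.02, 11.15 and 11.28 in the antibiotics samples, which overlapped through antibiotics replicate 3.

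Around these members, endolysosomal proteases were bright. Of 13 such genes measured, 11 lay above the floor. Of these, 4 differences lay above 0 and 7 below, with a median of -0.0083 (1 above and 10 below with the deposited scaling). Lgmn, an endolysosomal protease, had means of 8.76 ± 0.019 (re-fed) and 8.48 ± 0.16 (antibiotics) and differed by -0.28 (SE 0.11, adjusted p = 0.343), and the groups did not overlap. With the deposited scaling it was -0.47. Cst3, the inhibitor cystatin C, differed by 0.18 (SE 0.10), which was 0.087 in the common run and 0.069 with the deposited scaling. Ctsl, cathepsin L, differed by -0.19 (SE 0.12), which was -0.095 without antibiotics replicate 3, -0.044 in the common run, -0.028 with array weights and -0.38 with the deposited scaling. None of the 11 passed over all genes, and 1 had an unadjusted p under 0.05, where 12.6% of all genes did.

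Interferon-gamma induces Ciita, and of 22 genes of its signalling measured 15 lay above the floor. Of these, 4 differences lay above 0 and 11 below under each of the 4 scalings, with a median of -0.11 (-0.23 with the deposited scaling, where that of all genes was -0.12). Of all 12071 genes tested, 5947 lay below 0, but 8742 did with the deposited scaling and 7915 with median centring. Under those 2 scalings most genes therefore lay below 0 as well. None passed over all genes, and 2 had an unadjusted p under 0.05, both lower, where 12.6% of all genes did. With array weights 2 of the 15 passed, under a setting that called 1169 of the 12071 genes tested. Irf1, a transcription factor induced by interferon-gamma, stood at 10.71, 10.88 and 10.80 without and at 10.26, 10.69 and 10.48 with antibiotics. Its groups did not overlap, and the difference was -0.32 (SE 0.13, adjusted p = 0.353). It was -0.21 without antibiotics replicate 1 and -0.51 with the deposited scaling. The mean over the 2 probe sets of Irf1 gave -0.22 (limma adjusted p = 0.42). With such means 1 of the 15 genes had an unadjusted p under 0.05. Array weights made Irf1 a call (-0.50, adjusted p = 0.0225), under the setting that called 1169 genes. The kinase Jak2 differed by -0.31 (SE 0.12) and the phosphatase Ptpn2, a brake on the pathway, by -0.27 (SE 0.12), with groups that did not overlap in either. Without antibiotics replicate 3 these were -0.19 and -0.17, in the common run -0.20 for each and with the deposited scaling -0.50 and -0.44, and the mean over the 2 probe sets of Ptpn2 gave -0.11. Interferon-gamma itself, Ifng, lay under the floor at a 6-array mean of 5.14, while both receptor chains were bright, Ifngr1 at 11.64 and Ifngr2 at 12.32.

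For some genes of that list antibiotics replicate 3 stood apart from the other antibiotics samples. The interferon-inducible GTPase Irgm1, named after its values were seen, stood at 7.89, 8.08 and 8.14 without and at 7.33, 7.65 and 8.87 with antibiotics. Gbp3, named in the same way, stood at 6.74, 6.75 and 6.46 without and at 5.83, 6.29 and 7.45 with antibiotics. In both, antibiotics replicates 1 and 2 lay under all re-fed samples and replicate 3 above them. That array had the highest value of the 6 for 5 of the 15 genes (33.3%), against 22.7% of all genes tested. The share was 35.3% of 17 genes of class I presentation, 42.9% of 7 costimulatory and checkpoint ligands, 42.9% of the 7 RFX, NF-Y and CREB genes and 18.2% of 11 endolysosomal genes, so 3 of these lists had a higher share than the interferon list. Within the common run, which leaves it out, the median of the 15 was -0.17 (0.012 over all genes). There 0 passed and 6 had an unadjusted p under 0.05, where 17.4% of all genes did. That count was 4 of 7 for costimulatory and checkpoint ligands and 2 of 17 for class I presentation. It was 1 of 7 for the RFX, NF-Y and CREB genes and 0 of 11 for endolysosomal genes. Of the 6, 4 were lower, namely Irf1, Gbp3, Irgm1 and Gbp7, the last also named after its values were seen (differences -0.37, -0.55, -0.62 and -0.67). The others, Ifngr2 and Socs1, were higher (0.23 and 0.26). Over 6 arrays each of these differed by 0.18, with groups that did not overlap. Socs1 was named after its values were seen.

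**Figure D3:**
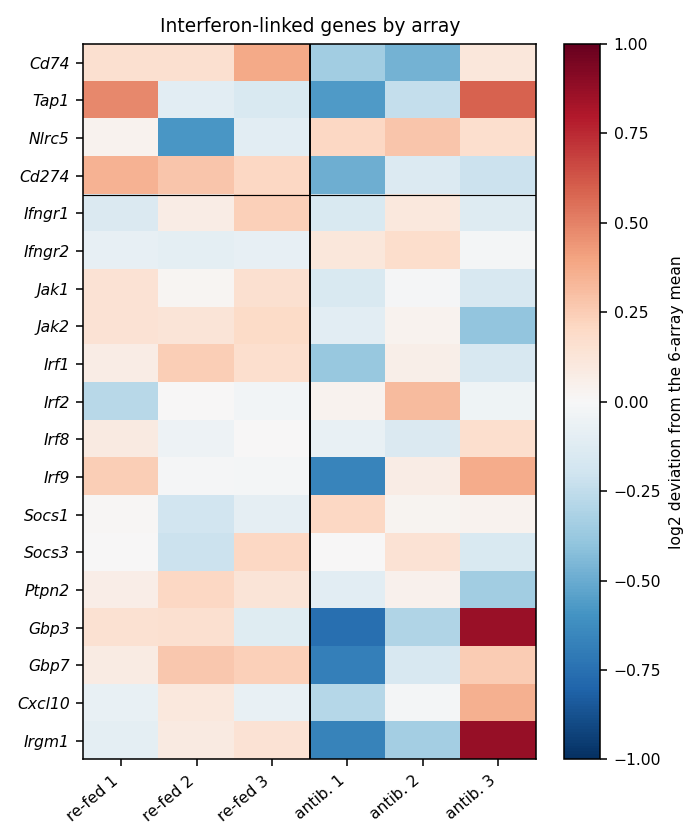
Log2 deviation of each gene from its 6-array mean (red above, blue below, colour range -1 to 1) on the 6 arrays, for Cd74, Tap1 (chosen after its values were seen), Nlrc5 and Cd274 (top 4 rows) and the 15 genes of interferon-gamma signalling above the floor. Antibiotics replicate 3 (last column) is red for Gbp3 and Irgm1, where antibiotics replicates 1 and 2 are blue.

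Genes of class I presentation, the pathway for peptides of the cytosol, were mostly bright. Of 19 measured, 17 lay above the floor. Of these, 9 differences lay above 0 and 8 below, with a median of 0.035 (-0.076 with the deposited scaling). Nlrc5, the class I counterpart of Ciita, stood at 8.91, 8.29 and 8.77 without and at 9.09, 9.15 and 9.05 with antibiotics. All 3 antibiotics values were above the re-fed ones, and the difference was 0.44 (SE 0.15, limma adjusted p = 0.303). That probe set is 1 of 19 of Nlrc5, and the mean over the 19 differed by 0.088 (adjusted p = 0.756). The difference was 0.25 without re-fed replicate 2 and 0.24 with the deposited scaling. Array weights made it a call (0.55, adjusted p = 0.0303), under the setting that called 1169 genes. Psmb10, an immunoproteasome subunit, differed by 0.24 (SE 0.10) and Tapbpl by 0.26 (SE 0.12), against 0.057 and 0.061 with the deposited scaling. They were 0.095 and 0.099 with median centring and 0.16 and 0.11 with array weights. The light chain B2m differed by 0.035 (SE 0.10, adjusted p = 0.917). None of the 17 passed over all genes, and 2 had an unadjusted p under 0.05 (Nlrc5 and Psmb10, both higher), where 12.6% of all genes did. With the deposited scaling 0 of the 17 had such a p.

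Among costimulatory and checkpoint ligands, 7 of 10 lay above the floor. Of these, 6 differences lay above 0 and 1 below, with a median of 0.15 (4 above and 3 below with the deposited scaling). The one below 0 was Cd274, which encodes PD-L1, the ligand that restrains T cells through PD-1. It stood at 7.59, 7.52 and 7.45 in the re-fed samples and at 6.76, 7.11 and 7.03 with antibiotics. The groups did not overlap, and the means of 7.52 ± 0.071 and 6.96 ± 0.18 (SD, n = 3 each) differed by -0.56 (SE 0.12, 95% interval -0.82 to -0.29), a 1.47-fold lower level. It did not pass over all genes (limma adjusted p = 0.129), and the difference within the common run was -0.55 (adjusted p = 0.118). With array weights it was called (-0.68, adjusted p = 0.0062), under the setting that called 1169 genes. Cd40 differed by 0.15 (SE 0.11), against 0.25 in the common run and with array weights. Vtcn1 differed by 0.22 (SE 0.17), but by 0.035 without antibiotics replicate 3, 0.14 without re-fed replicate 3, 0.13 with array weights and 0.34 without re-fed replicate 1. The classic costimulators Cd80 and Cd86 lay under the floor, as did Pdcd1lg2. None of the 7 passed over all genes, and 1, Cd274, had an unadjusted p under 0.05, where 12.6% of all genes did. In the common run 0 of 7 passed and 4 had such a p, where 17.4% of all genes did. Cd274 was lower there, and Cd40, Icosl and Icam1 were higher (0.25, 0.27 and 0.31). Icosl and Icam1 were named after their values were seen.

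**Figure D4:**
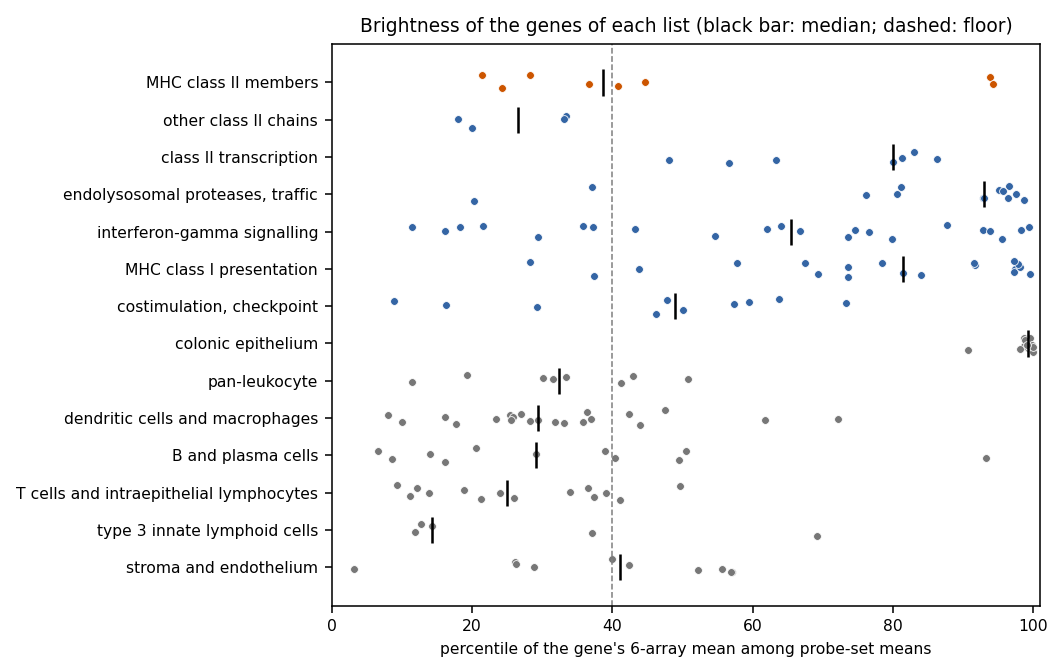
Each point is the percentile of a gene's 6-array mean among all probe-set means, for the 8 members (orange), the related pathway lists (blue) and the markers of cell types (grey). Black bars are list medians and the dashed line is the floor at the 40th percentile. The 4 other class II chains all lie left of the floor, and epithelial markers lie at the right edge.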

How the data were processed

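Total RNA of sorted cells was labelled with biotin from 6 µg, per the labels' protocols. The authors deposited log2 values made with RMA, per the submitters' processing notes, which state neither the version nor the arrays run together. The 6 arrays, 3 per group by sample title, limit the precision. The labels call the samples biological replicates without the number of mice in each. Of 35557 probe sets, 21789 named 1 gene, 1621 several and 12147 were unnamed here. Values were quantile-normalised over probe sets with a gene. Each gene kept its probe set with the highest mean, and the 12071 genes above the floor were tested with limma 3.58.1 in R 4.3.3 (two-sided, Benjamini-Hochberg, threshold 0.05, no block). The procedure was tested on simulated data with independent residuals and planted changes larger than the difference in Cd74. That test does not cover smaller differences or arrays that stand apart from the others. The scaling, members, lists and alternatives were chosen with earlier results of these data known. Named were all members, up to 3 genes per pathway list by smallest p, fixed genes (Irf1, B2m, Rfx5, Retnlb and defining markers, with the brightest marker of each list) and the 5 most alike; any other gene was named after its values were seen. H2-K1, H2-D1 and other listed genes without a probe set of their own were not analysed here. Same-numbered samples of the groups did not deviate together (r = 0.021, -0.034 and -0.22), so numbers were not taken as pairs.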

Additional observations from a re-analysis of the deposited data

How the results depend on the processing

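The number of arrays limits these values, and 4 of the 8 members lay under the floor and were tested only without it. No member was called in 15 of the 16 alternative settings, and 1 (Cd74) was with array weights. The count over all genes, 7, became 45 with the deposited scaling, 62 with median centring, 2 with no filter, 11 with the stricter floor, 1169 with array weights, 54 in the common run and 63 with the deposited scaling in the common run (chosen after seeing the data). It lay between 0 and 11 without any 1 array; the cause was not tested. With the replicate number as a block it was 7, and Cd74 had an adjusted p of 0.293, so the replicate block changed no member's call. Small differences changed sign. With the deposited scaling, median centring and quantile normalisation over all probe sets, Ctss had -0.17, -0.13 and -0.010. With the first and second of these, Nfyc had -0.077 and -0.038, Nfya -0.12 and -0.079 and B2m -0.075 and -0.037; Rfx5 had -0.020 with the deposited scaling. In the common run Nfyc had -0.032, B2m -0.030, Rfx5 -0.072 and H2-Aa -0.29, and there with the deposited scaling H2-Eb1 had 0.092, Nfyc -0.14, Nfya -0.061, B2m -0.045 and H2-Aa -0.19. With array weights B2m had -0.067, Rfx5 -0.035 and H2-Aa -0.16. Without any 1 array the difference lay between -0.10 and 0.15 for Ctss, -0.0090 and 0.093 for B2m, -0.17 and 0.13 for Rfx5, -0.14 and 0.39 for H2-Aa, and -0.26 and 0.066 for H2-Ab1, so each changed sign in at least 1 of these fits.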

Other observations

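Ido1, which encodes the tryptophan-degrading enzyme indoleamine 2,3-dioxygenase and is induced by interferon-gamma, was named after its values were seen. It stood at 5.39, 6.55 and 6.45 in re-fed replicates 1 to 3 and at 5.39, 5.12 and 5.17 with antibiotics. Re-fed replicates 2 and 3 lay above the floor of 5.81 and the other 4 arrays under it, so its 6-array mean of 5.68 left it out of the test. The difference was -0.90 over 6 arrays and -1.24 within the common run, where its 2 high arrays are the re-fed samples. Over 6 arrays the groups overlapped, since re-fed replicate 1 lay just under antibiotics replicate 1. Without the floor, limma gave Ido1 an adjusted p of 0.44, and an exact permutation test gave p = 0.2. Pecam1, an endothelial gene also expressed by leukocytes and named in the same way, stood at 5.73, 6.22 and 6.45 in the re-fed samples and at 5.73, 5.64 and 5.71 with antibiotics. It differed by -0.44 (SE 0.17, limma adjusted p = 0.337), and by -0.65 within the common run (adjusted p = 0.0711). Both genes were highest in the same 2 arrays, re-fed replicates 2 and 3.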
